A study of Mus musculus with 12 samples.

Results

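LSD1 (KDM1A) is a nuclear enzyme that removes methyl groups from mono- and dimethylated lysine 4 of histone H3, most often as part of the CoREST complex. H3K4me2, the dimethylated form, marks active promoters and also enhancers, stretches of DNA that lie away from the transcription start site (TSS) of a gene and bind cell type-specific factors. In liver, enhancers bind factors such as C/EBP, FOXA, HNF4A and HNF1 and control the genes of hepatocytes. The regions described here are the LSD1 peaks of mouse liver that lay away from promoters and carried H3K4me2: the centre of the peak was over 1 kb from every TSS of a protein-coding gene (GENCODE mouse release 21, mm10), and 1 bp or more of the peak lay inside an H3K4me2 interval listed for control liver. They numbered 3080 of 14584 LSD1 peaks, which is 21.1% (95% Wilson confidence interval 20.5% to 21.8%), and 32.04% of the 9614 distal LSD1 peaks. They are called distal LSD1/H3K4me2 regions.

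LSD1 was measured by ChIP-seq in liver of wild type C57BL/6 mice, and H3K4me2 in liver of mice called GFP control and LSD1-LKO. The control and LSD1-LKO mice both carried LSD1 fl/fl alleles and both received an AAV8 virus through the tail vein as young adults, AAV8-TBG-GFP in controls and AAV8-TBG-Cre in LSD1-LKO. The TBG promoter drives Cre in hepatocytes, so the other cell types of the liver keep LSD1. Each peak list rests on 2 ChIP libraries, 6 in all, and holds only peaks that were called in both libraries. The labels do not say whether the libraries came from separate mice, and the methods describe, for these mice in general, a high-fat diet that began after the injection and lasted some weeks until tissue was taken, without saying which diet the ChIP-seq mice had. A list holds peaks and no reads, so sequencing depth is unknown, and an absent peak means that none was listed, not that the mark was absent.

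Promoters of most hepatocyte markers carried H3K4me2 in the control list, as did 58.8% of all protein-coding genes. The small marker lists below were not tested against that share. Of 10 hepatocyte markers 8 had a control H3K4me2 peak within 1 kb of a TSS, against 0 of 6 Kupffer cell, 0 of 6 endothelial, 1 of 6 stellate, 3 of 5 cholangiocyte and 0 of 5 lymphocyte markers. The label "enhancer-like" was not tested by a mark that separates enhancers from other distal sites. Regions were distal by their centre, and 106 of them had a base within 1 kb of a protein-coding TSS. Some regions were close to starts outside the protein-coding set: 324 (10.5%, 9.49% to 11.7%) lay within 1 kb of a TSS of a gene not annotated as protein-coding, and 461 (14.97%, 13.8% to 16.3%) within 1 kb of any other annotated transcript start.

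Presence in the LSD1 list and in the control H3K4me2 list chose the regions, so the LSD1 values are a description. The fold enrichment over the control library had a median of 3.07 in the first-listed and 3.28 in the second-listed LSD1 library. It was 2.71 and 2.79 at distal LSD1 peaks without H3K4me2, and 3.34 and 3.56 at promoter LSD1 peaks with H3K4me2. Ranks below are the percentile of a peak's averaged −log10 p-value among the entries of its list, and the median LSD1 rank of the regions was 59.2. Of the regions, 506 regions (16.4%) had a q-value at or below 0.05 in both libraries and 395 (12.8%) reached a p-value of 1e-05 in each, while 373 (12.1%) had a p-value above 0.01 in at least one. When the LSD1 and control H3K4me2 entries all had to reach 1e-05, 185 regions were left. Across the 3080 regions, the fold enrichments of both libraries had a Spearman correlation of 0.183 and a Pearson correlation of 0.243. Just inside the 1 kb limit, the region 1001 bp from Marc1 had an LSD1 fold enrichment of 4.56 and 4.72 and the one 1001 bp from Sepsecs 4.07 and 3.18. Just outside, the peak 1000 bp from Atp5g1 had 3.24 and 3.43 and the one 996 bp from Agap2 4.01 and 3.17.

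Sequences of 300 bp at the centres of 10 regions are shown first, because base composition differed between regions with and without an H3K4me2 peak in LSD1-LKO liver. They are all windows that touch no annotated exon, save 2 that are not shown, among the 10 regions of highest LSD1 rank and the 10 regions without an LSD1-LKO peak whose control H3K4me2 ranked highest. They were read from the RefSeq GRCm38 assembly (mm10), plus strand, 5′ to 3′, with capitals at each CG dinucleotide (CpG) and the nearest gene as the name. The first 6, which kept an H3K4me2 peak, were Onecut3 (chr10:80475405-80475704) with 34 CpGs, Fdx1 (chr9:51993680-51993979) with 1, Plk5 (chr10:80368317-80368616) with 2, Cblc (chr7:19793403-19793702) with 4, Gdf15 (chr8:70630933-70631232) with 12 and Foxj2 (chr6:122810828-122811127) with 10. The last 4, without an LSD1-LKO peak, were Rell1 (chr5:63966801-63967100) with 1, Slc39a13 (chr2:91071794-91072093) with 5, Slc35d1 (chr4:103216143-103216442) with 4 and Foxo1 (chr3:52271407-52271706) with 5. The counts of the 2 sets overlapped, and among the windows not printed Ptch1 and Gata6, both without an LSD1-LKO peak, held 38 and 33.
Onecut3: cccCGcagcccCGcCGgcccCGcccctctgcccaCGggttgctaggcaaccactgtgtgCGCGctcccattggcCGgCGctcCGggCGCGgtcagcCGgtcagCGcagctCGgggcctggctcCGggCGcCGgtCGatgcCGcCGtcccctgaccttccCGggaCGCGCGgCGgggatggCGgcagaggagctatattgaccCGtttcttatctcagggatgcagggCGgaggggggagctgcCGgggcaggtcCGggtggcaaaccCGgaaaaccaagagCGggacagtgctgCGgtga
Fdx1: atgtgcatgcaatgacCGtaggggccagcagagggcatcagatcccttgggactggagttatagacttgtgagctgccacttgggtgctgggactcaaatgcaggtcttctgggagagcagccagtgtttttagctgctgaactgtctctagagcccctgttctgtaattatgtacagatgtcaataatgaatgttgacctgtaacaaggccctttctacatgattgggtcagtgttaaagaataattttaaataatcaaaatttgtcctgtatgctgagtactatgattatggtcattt
Plk5: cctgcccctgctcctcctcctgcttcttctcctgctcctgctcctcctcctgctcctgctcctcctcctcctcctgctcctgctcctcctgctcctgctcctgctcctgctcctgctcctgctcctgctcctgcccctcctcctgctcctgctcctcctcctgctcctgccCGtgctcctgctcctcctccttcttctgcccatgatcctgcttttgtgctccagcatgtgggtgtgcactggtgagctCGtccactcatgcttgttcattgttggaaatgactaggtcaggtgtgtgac
Cblc: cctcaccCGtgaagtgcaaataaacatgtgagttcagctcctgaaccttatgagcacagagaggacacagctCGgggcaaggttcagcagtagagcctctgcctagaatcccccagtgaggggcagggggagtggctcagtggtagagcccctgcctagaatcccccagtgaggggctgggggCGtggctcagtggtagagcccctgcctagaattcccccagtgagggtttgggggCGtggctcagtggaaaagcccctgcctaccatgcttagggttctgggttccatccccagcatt
Gdf15: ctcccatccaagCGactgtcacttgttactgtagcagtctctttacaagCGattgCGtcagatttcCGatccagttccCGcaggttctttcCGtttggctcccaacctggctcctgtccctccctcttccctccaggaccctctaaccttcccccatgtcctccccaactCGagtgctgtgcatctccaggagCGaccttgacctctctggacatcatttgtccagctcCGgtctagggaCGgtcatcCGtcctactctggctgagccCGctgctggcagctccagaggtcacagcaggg
Foxj2: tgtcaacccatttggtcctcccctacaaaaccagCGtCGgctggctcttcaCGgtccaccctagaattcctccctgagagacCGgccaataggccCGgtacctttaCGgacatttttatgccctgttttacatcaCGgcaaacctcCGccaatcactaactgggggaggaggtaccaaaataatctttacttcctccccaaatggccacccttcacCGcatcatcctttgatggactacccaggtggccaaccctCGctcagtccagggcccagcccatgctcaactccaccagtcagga
Rell1: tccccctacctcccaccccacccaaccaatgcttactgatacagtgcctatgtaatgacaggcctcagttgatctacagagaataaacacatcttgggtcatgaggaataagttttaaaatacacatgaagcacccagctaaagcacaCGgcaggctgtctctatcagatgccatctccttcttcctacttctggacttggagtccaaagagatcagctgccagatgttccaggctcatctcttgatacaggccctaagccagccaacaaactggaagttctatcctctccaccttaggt
Slc39a13: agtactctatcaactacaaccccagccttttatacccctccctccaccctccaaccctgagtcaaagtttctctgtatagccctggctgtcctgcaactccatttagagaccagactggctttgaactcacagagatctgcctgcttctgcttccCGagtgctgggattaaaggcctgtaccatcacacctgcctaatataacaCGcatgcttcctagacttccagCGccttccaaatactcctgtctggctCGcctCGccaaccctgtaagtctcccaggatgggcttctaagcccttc
Slc35d1: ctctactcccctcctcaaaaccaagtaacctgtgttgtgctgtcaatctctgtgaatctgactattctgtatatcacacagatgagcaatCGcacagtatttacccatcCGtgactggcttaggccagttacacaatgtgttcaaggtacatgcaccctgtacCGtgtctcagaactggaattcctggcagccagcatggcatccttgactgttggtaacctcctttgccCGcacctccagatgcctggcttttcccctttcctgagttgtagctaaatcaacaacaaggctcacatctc
Foxo1: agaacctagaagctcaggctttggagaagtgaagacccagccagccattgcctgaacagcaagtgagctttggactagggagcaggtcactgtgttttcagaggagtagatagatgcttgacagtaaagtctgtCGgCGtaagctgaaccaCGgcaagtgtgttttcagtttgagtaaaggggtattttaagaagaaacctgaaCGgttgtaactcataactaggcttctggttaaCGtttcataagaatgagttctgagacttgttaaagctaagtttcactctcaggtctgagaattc

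A further window, near Apob (chr12:7950198-7950497), was chosen after its sequence was seen, as an example of liver factor letters in a region without an LSD1-LKO H3K4me2 peak. Capitals mark the C/EBP letters TTGCNNAA, which read TTNNGCAA on the other strand.
Apob: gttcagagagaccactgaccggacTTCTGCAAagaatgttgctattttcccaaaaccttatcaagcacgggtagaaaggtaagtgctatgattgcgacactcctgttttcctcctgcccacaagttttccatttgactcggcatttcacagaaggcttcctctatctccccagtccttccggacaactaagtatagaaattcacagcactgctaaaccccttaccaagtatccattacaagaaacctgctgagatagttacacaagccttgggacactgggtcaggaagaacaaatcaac

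The regions lay mostly in introns and between genes. By the position of the centre, 47.4% (45.7% to 49.2%) were in introns of protein-coding genes, 46.1% (44.4% to 47.9%) outside such genes and 6.43% (5.62% to 7.35%) in exons. The median distance to the nearest protein-coding TSS was 14864 bp, with an interquartile range of 5065 to 41202 bp and a maximum of 851504 bp. Distal LSD1 peaks without H3K4me2 lay farther away, with a median of 30698 bp, whereas distal control H3K4me2 peaks without LSD1 lay at a median of 12520 bp. There were 1230 regions (39.9%) within 10 kb of a TSS and 291 (9.45%) beyond 100 kb. Upstream positions made up 44.2% (42.5% to 46.0%). With each region assigned to the nearest TSS, 2169 of 21853 protein-coding genes had at least 1 region, which is 9.93% of genes. Of these, 585 had 2 or more, 182 had 3 or more and 38 had 5 or more.

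**Figure D1:**
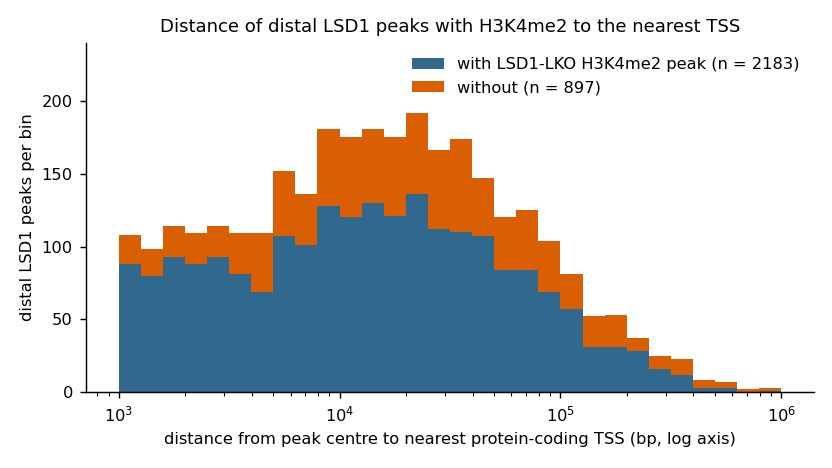
Number of distal LSD1/H3K4me2 regions by distance from the peak centre to the nearest protein-coding TSS (x axis in bp, log scale, 10 bins per 10-fold). Blue bars are the 2183 regions with an LSD1-LKO H3K4me2 peak and orange bars, stacked on them, the 897 without one. The orange share grows with distance, from 18.6% at 1 to 2 kb to 37.5% beyond 100 kb.

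Genes with such a region more often carried LSD1 and H3K4me2 at their own promoters than other genes did. A promoter LSD1 peak within 1 kb of a TSS was present at 886 of the 2169 genes (40.8%, 38.8% to 42.9%), against 4277 of the 19684 genes with no region (21.7%, 21.2% to 22.3%). A control H3K4me2 promoter peak was present at 83.4% (81.8% to 84.9%) of the genes with a region and 56.1% (55.4% to 56.8%) of the others. These shares are descriptions, since nearby peaks share libraries.

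The 10 regions with the highest mean −log10 p-value in the LSD1 libraries all carried an H3K4me2 peak in both control and LSD1-LKO liver. The region nearest to Eif4g2, which encodes a translation initiation factor, lay 39.6 kb upstream at chr7:111121936-111123311 and had an LSD1 fold enrichment of 10.3 and 6.50. It touched exons of the non-coding gene 1700012D14Rik, whose start was 51 bp from the centre. Fdx1, coding for a mitochondrial ferredoxin, had a region 30.3 kb upstream of its TSS with a fold of 7.58 and 9.97, and Plk5, a polo-like kinase, one 12008 bp downstream with 7.01 and 10.2. At Gdf15, which encodes a circulating stress-induced hormone, the region had its centre in an intron 1.01 kb from the TSS (chr8:70630219-70631946), with 6.01 and 10.2. It was 1728 bp wide, so part of it lay within 1 kb of the TSS. Near Foxj2, a forkhead transcription factor, the values were 9.39 and 6.77 at 8.94 kb upstream, and near Onecut3, a homeobox transcription factor, 6.75 and 9.25 at 19.3 kb upstream (chr10:80475237-80475872). The centre of the Foxj2 region was 192 bp from the start of Gm5112. That of the Onecut3 region was 797 bp from the start of the small nuclear RNA gene Gm25044. In the 2 libraries of each condition, the H3K4me2 fold at the Foxj2 region was 6.34 and 6.48 for controls against 4.43 and 7.52 for LSD1-LKO, and at the Gdf15 region 5.45 and 6.07 against 4.05 and 5.71, with overlapping ranges at both. At the Onecut3 region it was 4.10 and 5.72 against 3.69 and 2.68, with both LSD1-LKO values below both control values.

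Not all of the highest-ranking regions lay in sequence that is unique. Bases masked as repeats made up 100% of the 300-bp window near Atp6v0d2, 67.3% near Plk5, 60.7% at Cblc and 48.0% near Fdx1. In the other windows of this set the masked share was 6.67% to 14.3%. The central 32 bases of the region in an intron of Cblc, which encodes a ubiquitin ligase, occurred 1321 times in the chromosomes, and those of the regions nearest to 4930467E23Rik and Gm31371 on chromosome 8 occurred 2 times each. The centres of these chromosome 8 regions lay in exons of the processed pseudogenes Gm10060 and Gm21769, 42 and 27 bp from their starts. Over all regions, 135 (4.38%, 3.72% to 5.16%) had central bases that occurred more than once, compared with 857 (13.1%, 12.3% to 14.0%) of the distal LSD1 peaks without H3K4me2. The share of regions without an LSD1-LKO peak was 29.3% (864 of 2945) for the unique ones and 24.4% (33 of 135) for the others.

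Regions were spread over the genome, and a minority stood close together. When regions up to 12500 bp apart were joined, 886 (28.8%) fell into 391 clusters of 2 or more, and 3 clusters held 5 or more. The share in clusters was 19.1% when joined up to 5 kb, 37.2% up to 25 kb, and 7.03% among the 185 regions of p-value 1e-05 or less. The largest 2 clusters lay side by side on chromosome 6. The cluster at chr6:47739727-47772591 held 9 regions, with Pdia4 as the nearest gene, and that at chr6:47654793-47686014 held 8, with Ezh2 nearest, although the regions were 41.1 to 73.4 kb from the TSS of Pdia4 and 59.8 to 90.5 kb from that of Ezh2. All 17 kept an LSD1-LKO H3K4me2 peak. Their LSD1 fold enrichments were low for their rank, at 1.48 to 2.76 in the first-listed and 1.79 to 3.53 in the second-listed library for the Pdia4 cluster, while the best rank was 97.7. In each of the 17 the central 32 bases occurred more than once, 5 to 18 times for the Pdia4 cluster and 15 to 1298 times for the Ezh2 cluster. RefSeq places the 4.5S RNA gene Rn4.5s at chr6:47654921-47655094, under 1 region of the Ezh2 cluster. The part of read mapping in these clusters was not tested.

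The third cluster held 7 regions at chr19:5838862-5848711, with Frmd8 as the nearest protein-coding gene. In it 5 of the 7 touched Neat1, a long non-coding RNA that builds nuclear paraspeckles, and 3 touched Frmd8os. LSD1 folds were 1.78 to 5.01 and 2.16 to 4.97 in the 2 libraries, and 5 of the 7 kept an LSD1-LKO peak. The cluster at Hes1 (chr16:30063100-30071242), a transcriptional repressor in the Notch pathway, held 4 regions with folds of 2.07 to 5.01 and 4.63 to 6.66. That at Atoh8 (chr6:72216508-72244485), a basic helix-loop-helix transcription factor, held 4 with 3.28 to 4.79 and 2.33 to 5.74. All 4 kept an LSD1-LKO peak in both of these clusters.

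Beyond Pdia4, Ezh2 and Frmd8, the genes nearest to most regions were Pim3 (a serine/threonine kinase), Zmiz1 (a transcriptional coregulator) and Zfp36l2 (an mRNA-binding protein) with 7 each, and Hes1, Tex14 and Ppp1r3b were among those with 6. At Pim3 the regions spanned 41.7 kb and 3 of 7 had no LSD1-LKO peak, at Zmiz1 they spanned 333 kb and again 3 of 7 had none, and at Zfp36l2 2 of 7 had none. Ppp1r3b, a subunit that directs protein phosphatase to glycogen, had 6 regions 39.8 to 168 kb from its TSS, of which 3 had no LSD1-LKO peak. All 6 Tex14 regions kept a peak, but 5 of them touched small RNA genes of the Rnu3b and Rnu1a1 families and 4 had central bases that occurred more than once.

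In LSD1-LKO liver, 2183 of the 3080 regions overlapped a listed H3K4me2 peak and 897 did not, which is 29.1% (27.6% to 30.8%). The background over all LSD1 peaks with control H3K4me2, promoter peaks included, was 15.4%. Counted over control H3K4me2 peaks instead, the share without an LSD1-LKO peak was 31.95% of all and 43.7% of the distal ones. Change of listing was not one-sided: of 3339 distal LSD1 peaks with an LSD1-LKO H3K4me2 peak, 1156 had no control peak, which is 34.6% (33.0% to 36.3%). Many of the 897 had an LSD1-LKO peak nearby. The median gap from the 897 regions to the nearest LSD1-LKO peak was 574 bp, 331 (36.9%) had one within 250 bp and 513 (57.2%) within 1 kb, whereas 145 (16.2%) had none within 10 kb. For 256 (28.5%), the control H3K4me2 peak itself still overlapped an LSD1-LKO peak elsewhere along its length. The overlap was counted with the intervals of the first-listed library, and 366 of the 897 (40.8%) overlapped the second-listed interval of an LSD1-LKO entry, which left 531 regions, 17.2% of all, without an interval of either library. The share thus depended on what counts as kept: it was 19.2% with the second-listed intervals throughout, 12.47% when an LSD1-LKO peak within 1 kb sufficed, and 42.4% when overlaps had to span 50% of the narrower interval.

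Regions that kept a peak changed rank in both directions. Ranks are relative to lists of 43891 control and 50675 LSD1-LKO entries, and these regions were taken for having a peak in each, so the differences are a description. Of the 2183, 710 (32.5%) differed by at least 20 percentile points, 378 with a higher and 332 with a lower rank in LSD1-LKO. The highest-ranking control and LSD1-LKO peaks of a region did not overlap each other in 256 of the 2183 (11.7%), and among the other 1927, 602 (31.2%) differed by at least 20 points. Regions that kept a peak already had more H3K4me2 in controls than those that did not: the median control rank was 56.1 against 36.6, the median width of the control peak 909 against 600 bp, and the median control fold enrichment 3.73 and 5.04 against 3.07 and 3.96 in the first- and second-listed libraries. LSD1 itself differed less, with median folds of 3.12 and 3.39 against 3.005 and 3.20.

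The covered length gives the values of each library. Within 1 kb on either side of the centre of all 3080 regions, H3K4me2 peaks covered on average 1035 and 1326 bp in the control libraries and 846 and 1257 bp in the LSD1-LKO libraries. The first-listed LSD1-LKO library was the lowest and the second-listed control library the highest, and the groups overlapped. The regions were chosen by overlap with a control interval, which favours higher values in controls, so the difference was not tested: no base was covered at 0 and 4 of them in the control libraries and at 413 and 378 in the LSD1-LKO libraries. Regions with an LSD1-LKO peak had 1112 and 1401 bp in controls and 1080 and 1504 bp in LSD1-LKO. Regions without one had 848 and 1144 bp in controls and 277 and 655 bp in LSD1-LKO, a split that follows from how they were chosen.

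**Figure D2:**
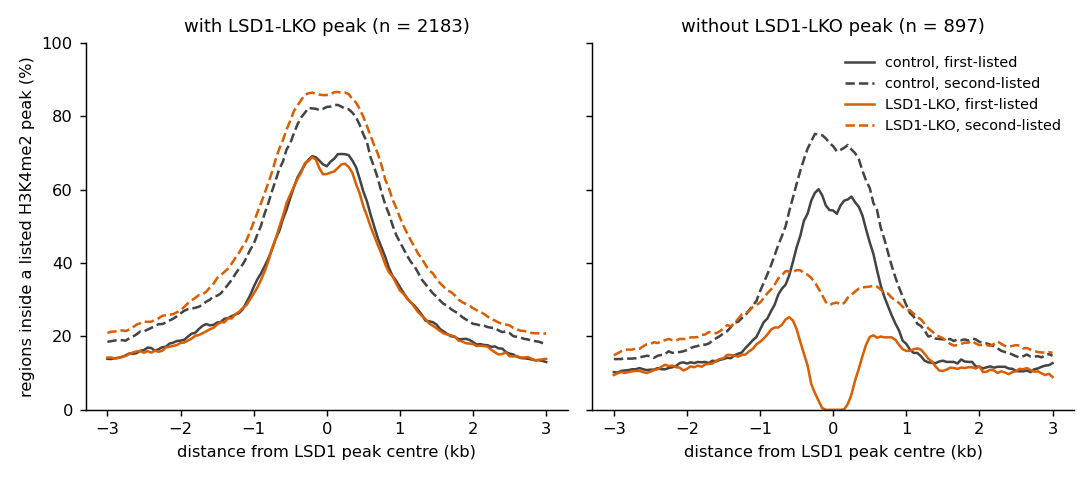
Share of distal LSD1/H3K4me2 regions (y axis, %) that lay inside a listed H3K4me2 peak at each distance from the LSD1 peak centre (x axis, kb), with one line per library. In regions with an LSD1-LKO peak (n = 2183, left) the first-listed lines reach 66.3% (control) and 64.2% (LSD1-LKO) at the centre, and in regions without one (n = 897, right) the first-listed LSD1-LKO line drops to 0 at the centre, as the choice of these regions requires, while the second-listed LSD1-LKO line stands at 29.0%.

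Distal LSD1 peaks had H3K4me2 in one list and not in the other more often than promoter LSD1 peaks, in either direction. Of 4581 promoter LSD1 peaks with control H3K4me2, 283 had no LSD1-LKO peak (6.18%, 5.52% to 6.91%), which was 22.9 percentage points below the distal regions (95% Newcombe interval 21.2 to 24.7, odds ratio 6.24, Fisher's exact test, two-sided, p = 2.19e-163). The test counts regions and covers counting error only, since regions of the same 2 libraries are not biological replicates. The reverse count differed in the same way: of LSD1 peaks with an LSD1-LKO H3K4me2 peak, 34.6% of the distal ones and 212 of 4510 promoter ones (4.70%, 4.12% to 5.36%) had no control peak, a difference of 29.9 points. Promoter peaks stood in far stronger H3K4me2: 2729 of them, but 465 of the distal regions, overlapped a control peak of the highest quintile. With control rank held by quintile, the difference in missing LSD1-LKO peaks was 14.7 points, and within the highest quintile the shares were 7.53% (5.46% to 10.3%) at distal and 4.29% (3.59% to 5.11%) at promoter peaks.

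The difference from promoters went with CpG density. Windows of 500 bp were centred on the LSD1 peak, or on the H3K4me2 peak in the class without LSD1. A window was called CpG-dense if GC content was above 50% and the observed over expected CpG ratio above 0.6. This held for 312 regions (10.1%, 9.11% to 11.2%), 80.5% of the promoter LSD1 peaks with H3K4me2, 0.765% of the distal LSD1 peaks without H3K4me2 and 4.52% of the distal control H3K4me2 peaks without LSD1. Only 14 of the 312 CpG-dense regions had no LSD1-LKO peak (4.49%, 2.69% to 7.39%), against 883 of the other 2768 (31.9%, 30.2% to 33.7%). Among CpG-dense windows, distal and promoter LSD1 peaks did not differ detectably, with 4.49% against 4.55% of 3689 (difference -0.0669 points, interval -2.0 to 2.9, Fisher's exact test, two-sided, p = 1). Among the remaining windows the difference was 19.01 points (16.1 to 21.7), with 12.9% of 892 promoter peaks, and 9.42 points with control rank held by quintile. These splits by CpG density were chosen after seeing the data.

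CpG-dense regions also had a higher control H3K4me2 rank, 84.4 against 47.1 at the median, and more of them lay near other transcript starts, 141 of 312 (45.2%) against 320 of 2768 (11.6%). Within the highest quintile of control rank, 4 of 180 CpG-dense regions (2.22%, 0.867% to 5.57%) and 31 of 285 others (10.9%) had no LSD1-LKO peak, and within the fourth quintile 4 of 85 (4.71%, 1.85% to 11.5%) and 105 of 562 (18.7%, 15.7% to 22.1%). The reverse count had the same form: of distal LSD1 peaks with an LSD1-LKO peak, 13 of 311 CpG-dense ones (4.18%) and 1143 of 3028 others (37.7%) had no control peak.

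**Figure D3:**
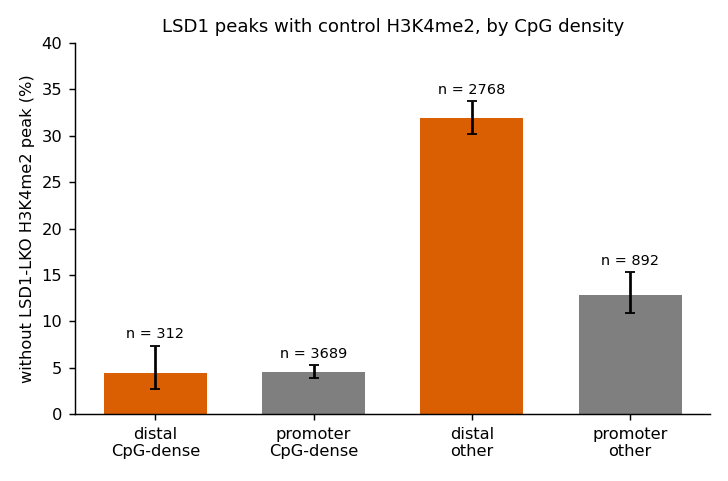
Share of LSD1 peaks with control H3K4me2 that had no LSD1-LKO H3K4me2 peak (y axis, %), for distal regions (orange) and promoter peaks (grey), split by CpG density of the 500-bp window at the centre. Error bars are 95% Wilson intervals; the CpG-dense bars stand at 4.49% and 4.55%, the others at 31.9% and 12.9%.

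Compared with other distal H3K4me2, the mark was lost from the list less often where LSD1 was present. Of 3158 distal control H3K4me2 peaks at the regions, 825 had no LSD1-LKO peak (26.1%, 24.6% to 27.7%), against 11407 of 24545 distal control peaks without LSD1 (46.5%, 45.9% to 47.1%), and the background over all distal control peaks was 43.7%. The difference was -20.3 points (-22.0 to -18.7, odds ratio 0.407, Fisher's exact test, two-sided, p = 5.08e-109, counting error only). Peaks at the regions were wider, with a median of 720 bp against 497 bp, and ranked higher, 47.5 against 33.1. With control rank held by quintile the difference was -10.9 points, and it kept its sign in each quintile, from 48.3% against 70.7% in the lowest to 3.52% against 10.1% in the highest. With control width held by quintile the difference was -10.2 points, and the shares in the widest quintile were 3.88% against 6.34%. No reverse count is given for this comparison.

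**Figure D4:**
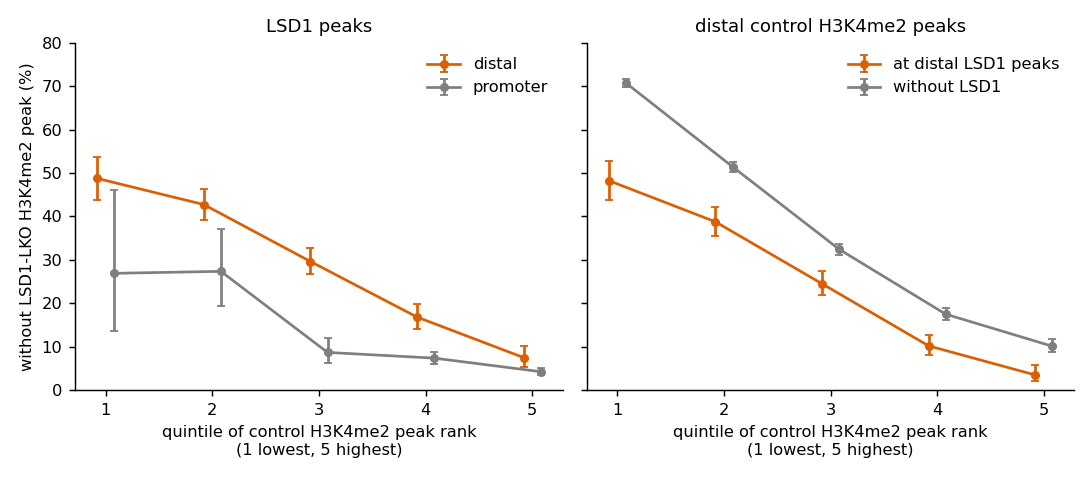
Share without an overlapping LSD1-LKO H3K4me2 peak (y axis, %) by quintile of control H3K4me2 rank (x axis) for distal and promoter LSD1 peaks (left) and for distal control H3K4me2 peaks at the distal LSD1 regions or without LSD1 (right). Points are shares with 95% Wilson intervals. The share falls from 48.8% to 7.53% across the quintiles of the distal LSD1 regions, which lie above promoter peaks on the left and below H3K4me2 peaks without LSD1 on the right.

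Loss from the list also went with the LSD1 rank and the distance. Among quintiles of the regions by LSD1 rank, the share without an LSD1-LKO peak was 35.9% (32.2% to 39.7%) in the lowest and 20.8% (17.8% to 24.2%) in the highest. By distance it was 18.6% (14.8% to 23.3%) at 1 to 2 kb from the TSS, 24.9% at 2 to 5 kb, 28.2% at 5 to 10 kb, 30.9% at 10 to 50 kb, 32.01% at 50 to 100 kb and 37.5% (32.1% to 43.2%) beyond 100 kb.

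Among regions without an LSD1-LKO peak, those with the highest-ranking control H3K4me2 lay close to genes. The region in an intron of Ptch1, a receptor of the hedgehog pathway, lay 2204 bp upstream of the nearest TSS. It had an LSD1 fold of 3.0 and 4.27 and a control H3K4me2 fold of 8.99 and 10.1. The nearest LSD1-LKO peak was 126 bp away. At Foxo1, a transcription factor restrained by insulin, the region in an intron had an LSD1 fold of 2.00 and 2.17, a control fold of 5.97 and 8.57 and an LSD1-LKO peak at 204 bp. Slc35d1, a nucleotide sugar transporter, had one at 49 bp, Slc39a13, a zinc transporter, at 167 bp, Ppargc1b, a transcriptional coactivator of mitochondrial genes, at 157 bp, and Lgalsl, a galectin-related gene, at 233 bp. Thus 6 of the 10 had an LSD1-LKO peak within 250 bp, and for 6 the control peak still overlapped one. The gap was 1747 bp at Rell1, 1091 bp at Cyb5a, which encodes cytochrome b5, and 1087 bp at Echdc1, which encodes a decarboxylase of side products of fatty acid synthesis. It was 76174 bp at Gata6, a transcription factor of endoderm, where the control fold was 3.7 and 9.07. These 10 did not stand out in LSD1, with ranks of 3.10 to 72.5.

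Liver transcription factors were the gene list with the largest share of genes near a region: 23 of 30 (76.7%), with 56 regions, beside the 9.93% of all protein-coding genes. Of the 56, 17 had no LSD1-LKO peak, and for this and each list that follows the share over all regions was 29.1%. All 30 also had a distal control H3K4me2 peak nearest to them. Nfia had 4 regions, all kept, the strongest in an intron 43.9 kb from the TSS with an LSD1 fold of 4.01 and 7.17. Nr1h4, the bile acid receptor FXR, had 3.32 and 6.21 at a region in its intron, 12.1 kb upstream of the nearest TSS. Ppara, the fatty acid receptor, had 5.17 and 4.72 at 15.2 kb upstream, and 1 of its 3 regions had no LSD1-LKO peak. At Onecut2 the values were 4.73 and 4.79. At Hnf4a, a master regulator of hepatocyte genes, the region in an intron had an LSD1 fold of 3.34 and 2.35. It overlapped 2 control H3K4me2 peaks, the higher-ranking at 88.0, and 1 LSD1-LKO peak of rank 35.0. The LSD1-LKO peak did not overlap the control peak of rank 88.0, and the other control peak was not compared.

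Circadian clock genes had a region at 11 of 19 (57.9%), with 19 regions of which 3 had no LSD1-LKO peak. The Per2 region, in an intron 16.7 kb from the TSS, had an LSD1 fold of 5.73 and 4.99, and those at Bhlhe41, Arntl (BMAL1) and Cry1 had 6.22 and 2.54, 4.83 and 3.92, and 4.40 and 4.15. All 4 overlapped an LSD1-LKO H3K4me2 peak, but at Per2 the highest-ranking of 3 control and of 3 LSD1-LKO peaks did not overlap each other. The control rank at Arntl was 4.75, and it was 55.5 in LSD1-LKO.

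Genes of glucose metabolism and insulin action had a region at 13 of 25 (52.0%), with 8 of 26 regions without an LSD1-LKO peak. G6pc, which releases glucose from glucose-6-phosphate, had a region 15.7 kb upstream with LSD1 folds of 4.98 and 4.49. It overlapped 2 control peaks, the higher-ranking at 57.0, and 1 LSD1-LKO peak of rank 27.5. The LSD1-LKO peak did not overlap the control peak of rank 57.0, and the other control peak was not compared. The region 6.08 kb upstream of Pck1, the gluconeogenic enzyme PEPCK, had an LSD1 fold of 3.71 and 3.81 and a control H3K4me2 fold of 4.48 and 5.93, and the nearest LSD1-LKO peak was 320 bp away. Among lipid and sterol synthesis genes, 13 of 27 (48.1%) had a region and 5 of 20 regions had no LSD1-LKO peak. The strongest were those of Sqle (5.29 and 6.77), Insig2 (3.73 and 5.81), Srebf2 (2.35 and 6.09) and Scd1 (5.17 and 3.24), which serve or regulate cholesterol and fatty acid synthesis. All 4 overlapped an LSD1-LKO peak. At Sqle that peak did not overlap the higher-ranking of 2 control peaks, and the other control peak was not compared.

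Secreted plasma proteins, the main export of hepatocytes, had a region at 20 of 48 genes (41.7%), and 7 of 26 regions had no LSD1-LKO peak. Both of the strongest were among those 7: the region 3.25 kb upstream of Saa1, an acute-phase protein, with LSD1 folds of 6.11 and 3.92 and no LSD1-LKO peak within 7172 bp, and the region 27.3 kb upstream of Apob, the protein of very low density lipoprotein, with 4.03 and 4.99 and an LSD1-LKO peak at 109 bp. Apob had 3 regions, of which 1 kept a peak. The regions of Itih2 and Trf (transferrin) overlapped an LSD1-LKO peak, but at Trf that peak did not overlap the 1 control peak. In the list of bile acid and transport genes, 6 of 20 (30%) had a region and 6 of 13 regions had no LSD1-LKO peak. At Slco1b2, a bile acid and drug uptake carrier, the LSD1 folds were 5.17 and 4.19, the control H3K4me2 folds 4.85 and 3.29 and the gap 1105 bp. Cyp27a1, a bile acid enzyme, kept a peak with a control rank of 11.9 and an LSD1-LKO rank of 59.5. Of 5 regions at Abca1, a cholesterol exporter, 3 had no LSD1-LKO peak, while the one with the highest LSD1 rank had H3K4me2 ranks of 83.6 in control and 94.2 in LSD1-LKO. The 1 region at Abcg8 had none.

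Urea cycle and amino acid genes had a region at 11 of 25 (44.0%), with 4 of 16 regions without an LSD1-LKO peak. The strongest regions of Gnmt and Ass1 had LSD1 folds of 5.68 and 5.39, and 3.76 and 4.85. Both overlapped a peak in each condition, but the 1 control and 1 LSD1-LKO peak at Gnmt did not overlap each other. At each gene 1 of 3 regions had no LSD1-LKO peak. At Bhmt, an enzyme of methionine synthesis, the stronger of 2 regions had folds of 5.01 and 4.30 with the nearest LSD1-LKO peak 8232 bp away, and the other kept a peak. Hepatokine genes had 10 of 22 (45.5%) and 5 of 14, with Gdf15, Inhbe, Tsku and Selenop as the strongest. The share was lower for fatty acid oxidation and ketogenesis, 5 of 20 (25%), where Cpt1a, the entry enzyme of mitochondrial fatty acid oxidation, had control and LSD1-LKO ranks of 23.5 and 94.9 at a region in its intron. It was 3 of 16 (18.8%) for LSD1 and its partner genes, where Gse1 had 5 regions and Zfp217 had 3. Genes of other tissues had a region at 3 of 30 (10%): Neurod2, Snap25 and Adipoq. Of the mitochondrial genes that the study lists as downregulated in LSD1-LKO, 50 of 352 found (14.2%) had a region, beside 9.93% of all protein-coding genes. A promoter LSD1 peak was present at 126 (35.8%) and a control promoter H3K4me2 peak at 344 (97.7%), beside 23.6% and 58.8%. Of all promoter LSD1 peaks, 4581 had control H3K4me2 and 389 did not, and LSD1 shares were not compared among genes with promoter H3K4me2 alone. This list was chosen by the study from its own RNA-seq. Gene lists hold genes of different length and surroundings, and the shares were not tested.

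Hepatocyte markers had a region at 4 of 10 genes, with 9 regions, and markers of the other liver cell types at 3 of 28 (10.7%), near the 9.93% of all genes. Pecam1 (endothelial) had 2, Dcn (stellate) 1 and Sox9 (cholangiocyte, also a progenitor factor) 4, of which 3 had no LSD1-LKO peak. Kupffer cell and lymphocyte markers had 0 regions. Chromatin came from whole liver, so that fewer cells with a mark and less of the mark per cell cannot be told apart.

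Letters of liver factors were more common in the regions than in the other distal classes, and so were some letters of promoter factors. In 500-bp windows, the C/EBP letters TTGCNNAA were present in 30.4% of regions, compared with 25.6% of distal LSD1 peaks without H3K4me2, 22.3% of distal control H3K4me2 peaks without LSD1 and 11.2% of promoter LSD1 peaks with H3K4me2. The HNF4A letters CAAAGTCCA were present in 3.47% (2.88% to 4.18%), against 1.48%, 1.45% and 0.808%. For FOXA (TGTTTAC) the shares were 10.5%, 8.77%, 8.89% and 3.62%. HNF1 letters (GTTAATNAT) were present in 3.15% of regions (2.59% to 3.83%) and 0.655% of promoter peaks. They were present in 147 of 6534 distal LSD1 peaks without H3K4me2 (1.92% to 2.64%) and 2.12% of distal control H3K4me2 peaks without LSD1. The intervals of the regions and of distal LSD1 peaks without H3K4me2 overlapped for HNF1, and for FOXA (9.45% to 11.6% and 8.11% to 9.48%). The DR1 letters of PPAR-RXR, GGTCAAAGG, were rarer, with 1.66%, 1.19%, 0.994% and 0.327%, and the intervals of the regions (1.26% to 2.17%) and of distal LSD1 peaks without H3K4me2 (0.958% to 1.49%) overlapped. At least 1 of these 5 motifs was present in 42.2% of regions (40.5% to 44.0%), against 35.2% (34.0% to 36.4%), 7864 of 24545 windows (31.5% to 32.6%) and 15.7% (14.6% to 16.8%). Both strands were searched, and DR1 letters can overlap those of HNF4A. Windows were centred on the LSD1 peak, but on the H3K4me2 peak in the class without LSD1, so shares of that class come from differently placed windows.

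The letters of promoter factors were most common at promoters. SP/KLF letters (GGGCGG) were present in 20.2% of regions, 78.0% of promoter LSD1 peaks and 6.84% of distal LSD1 peaks without H3K4me2, GABPA letters (CCGGAAGT) in 1.07%, 7.55% and 0.444%, and NRF1 letters (CGCATGCG, the same on both strands) in 0.519%, 3.97% and 0.0918%. In distal control H3K4me2 peaks without LSD1 the shares were 12.8%, 0.766% and 0.232%. For GABPA the interval of that class (0.664% to 0.883%) overlapped that of the regions (0.764% to 1.5%). For AP-1 (TGANTCA), STAT5 (TTCNNNGAA), D-box (TTANGTAA) and ERR (TCAAGGTCA) letters, the regions lay within 1.6 percentage points of distal LSD1 peaks without H3K4me2, at 15.5%, 14.2%, 6.07% and 1.43%. The E-box CACGTG was present in 9.29% of regions and 6.57% of distal LSD1 peaks without H3K4me2, and CTCF letters (CCACNAGGG) in 2.56% and 1.93%. In distal control H3K4me2 peaks without LSD1 the E-box share was 7.52% and the CTCF share 1.98%. For CTCF the intervals of all 3 of these distal classes overlapped.

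**Figure D5:**
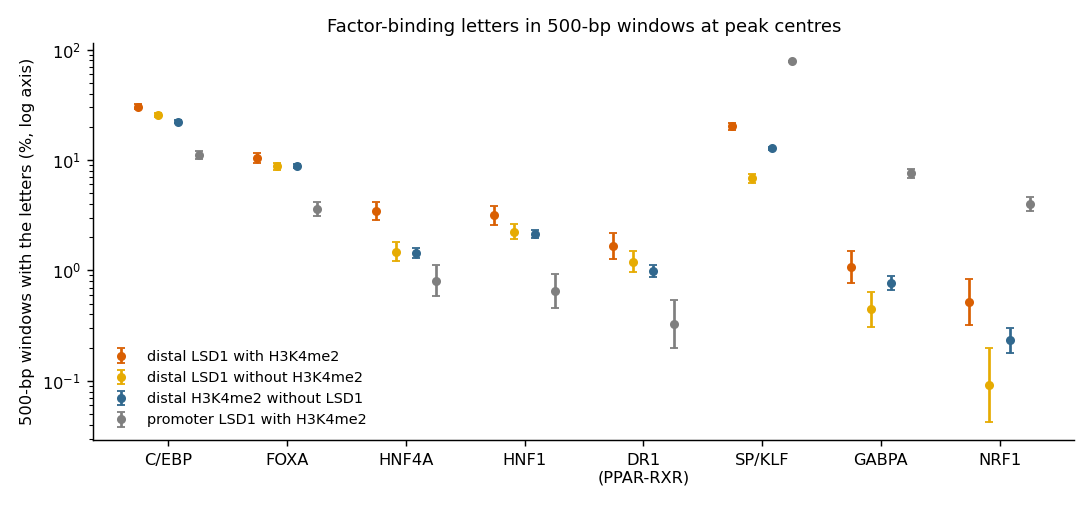
Share of 500-bp windows that hold the letters of each factor (y axis, %, log scale) in 4 classes of peaks, with 95% Wilson intervals. Windows were centred on the LSD1 peak, or on the H3K4me2 peak in the class without LSD1. C/EBP, FOXA, HNF4A, HNF1 and DR1 letters are highest in the distal LSD1/H3K4me2 regions (orange) and lowest at promoter LSD1 peaks (grey), and SP/KLF, GABPA and NRF1 letters are highest at promoter peaks.

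Regions with and without an LSD1-LKO peak also differed in sequence. The median GC content was 50.2% with a peak and 47.4% without. C/EBP letters were present in 28.7% of the 2183 regions with a peak and 34.3% of the 897 without, FOXA letters in 9.57% and 12.7%, HNF4A letters in 3.34% and 3.79%, and SP/KLF letters in 24.2% and 10.4%. Base composition moved with this split, and with CpG-dense windows left out the shares were 31.1% (29.0% to 33.2%) and 34.7% (31.6% to 37.9%) for C/EBP, 10.1% (8.85% to 11.6%) and 12.9% (10.9% to 15.3%) for FOXA, and 301 of 1885 (14.4% to 17.7%) and 83 of 883 (7.65% to 11.5%) for SP/KLF. For HNF4A the shares were 3.77% (3.0% to 4.72%) and 3.85% (2.77% to 5.33%). With these windows left out, the intervals overlapped for C/EBP, FOXA and HNF4A, and lay apart for SP/KLF. A match of letters does not show that a factor was bound.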

How the data were processed

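Chromatin immunoprecipitation with antibodies against LSD1 or H3K4me2 was sequenced from mouse liver, with 2 libraries per group and a control library for each, called input in the labels and IgG in the methods. The authors mapped reads to mm10 with Bowtie 2, called narrow peaks in each library with MACS2, and kept peaks found in both libraries with bedtools 2.25.0. Handling of reads that map to several places is not given in the sources used here. The deposited lists give, per peak and library, an interval, a fold enrichment over the control library and the −log10 p-value and −log10 q-value, all as MACS computed them. The 12 columns of integer scores and summit offsets and the overlap lengths were not used. Peaks were ranked as percentiles among the entries of one list, after averaging −log10 p over both libraries. Overlaps used the first-listed interval of each entry. Where a region overlapped several H3K4me2 peaks of a list, the values given are those of the highest-ranking peak.

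Distances, overlaps (at least 1 bp) and shares were computed with Python 3.11.15, pandas 2.3.3, numpy 2.4.6, scipy 1.17.1 and bedtools 2.31.1, and the 21 chromosomes and their lengths were checked against GRCm38. Shares carry 95% Wilson intervals and differences Newcombe intervals. Regions were compared by Fisher's exact test, with Cochran-Mantel-Haenszel tests within quintiles. A permutation test of covered length over libraries had been planned, but the rule used the control intervals, so its p is not reported. Intervals and tests cover counting error only, and sequencing depth is unknown. The computations were tested on simulated data. Named regions were the 10 of highest LSD1 rank, the 10 without an LSD1-LKO peak of highest control rank, the 10 genes with most regions, the 5 largest clusters and up to 4 genes per list. Some of these are not reported here. The regions, lists and rule were chosen with earlier results of these data known. Alternatives were another p-value limit, distance, overlap, list, interval, stitching length and window.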

Additional observations from a re-analysis of the deposited data

How the results depend on the processing

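No paired analysis was possible because the lists carry no replicate numbers. The number of regions fell from 3080 to 185 when entries had to reach a p-value limit of 1e-05 per library. The share without an LSD1-LKO peak, 29.12% as reported, was 38.92% with that limit in all 3 lists, 31.37% beyond 5 kb from a TSS, 42.44% with overlaps of 50% of the narrower interval, 34.62% when the rule used the LSD1-LKO list and counted missing control peaks, 12.47% when no LSD1-LKO peak was allowed within 1 kb, and 19.24% with the second-listed intervals, the one run that left the first-listed library out. Among alternatives chosen after seeing the data, it was 31.9% in windows that were not CpG-dense, and the difference between distal and promoter peaks turned to -0.0669 points (Fisher's exact test, p = 1) in CpG-dense windows. In the other alternatives run, that difference kept its sign and its side of the threshold, between 11.29 and 29.92 points, or 9.419 in windows that were not CpG-dense within quintiles of rank. The difference between H3K4me2 peaks with and without LSD1 stayed between -24.18 and -10.2 points. Shares of all 14 motifs moved in 200-bp windows. The cause of these changes was not tested. Depth is unknown, and an absent entry can be a peak missed in 1 library.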
